A study of Mus musculus with 8 samples.

Results

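The mouse interferon-induced gene families and the interferon regulatory factors comprise 68 of the 16330 protein-coding genes, and of the 21649 genes in all, for which RNA was measured in cells sorted from 3 organs. The members were chosen by gene symbol: the IFIT, IFI, IFITM, OAS and GBP families, the numbered IRF genes, and a set that includes Mx1, Mx2, Stat2, Isg15, Usp18, Rsad2, Cmpk2, Bst2 and Xaf1. The pseudogene Ifi203-ps fitted the symbols but is not protein-coding and was left out. The cells were sorted by fluorescence and are labelled non-vascular smooth muscle cells, with 2 libraries from lung, 3 from intestine and 3 from bladder. Mice of every group carried the alleles Cspg4-Dre, Acta2-CreERT and R26-GFP. All received tamoxifen, 0.75 mg for each 10 g of body weight on 3 days by the intraperitoneal route, from a stock of 20 mg/mL in corn oil. Acta2 (smooth muscle actin) drives the tamoxifen-dependent Cre and Cspg4 (the NG2 proteoglycan) drives Dre. How the reporter answers to Dre and Cre together is not stated in the labels. No untreated or interferon-treated group was analysed here, so all comparisons are between organs. No source used here gives the age or number of the mice or says whether animals were pooled. P-values therefore describe the scatter among these libraries alone, and that scatter may be technical.

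Interferons are secreted proteins that alert cells to viruses and other microbes. Type I interferons bind the receptor made of Ifnar1 and Ifnar2, whose kinases Jak1 and Tyk2 phosphorylate STAT proteins. These join IRF9 and bind the interferon-stimulated response element (ISRE), whereas interferon gamma acts through STAT dimers on the gamma-activated site (GAS). The induced proteins bind foreign RNA (IFIT and OAS families), sense DNA (the Ifi200 family), coat the membranes of vacuoles that hold microbes (GBP family) or keep enveloped viruses from fusing with endosomes (IFITM family). Several IRF proteins also have roles outside infection, among them IRF8 in myeloid cells and IRF4 in lymphocytes. Smooth muscle cells, like most cells, respond to interferon.

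The promoters of many members carry the letters that these factors are known to bind. Promoter sequences, taken from RefSeq on build GRCm38.p6, were matched to 49 of the 68 members. The ISRE letters, TTTC followed by 2 bases of any kind and again TTTC, searched on both strands in the 250 bases before the start of transcription, were found in 27 of the 49 (55.1%) and in 3.46% of the 27025 genes with a promoter sequence. The GAS letters TTCNNNGAA were found in 9 of the 49 (18.4%) and in 8.13% of all genes. A match is a description of the sequence and not a measured binding site. The stretches below are 60 bases each, read 5′ to 3′ on the strand of the gene, with capitals on the matches in either orientation. They are shown for members whose values are described further on, to let near-identical and differing neighbours be compared.
Ifit1 (ISRE, chr19:34640779-34640838, + strand): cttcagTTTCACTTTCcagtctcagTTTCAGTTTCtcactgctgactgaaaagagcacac
Ifit3 (ISRE, chr19:34583382-34583441, + strand): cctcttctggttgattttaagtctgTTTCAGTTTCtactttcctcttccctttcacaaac
Ifit3b (ISRE, chr19:34607778-34607837, + strand): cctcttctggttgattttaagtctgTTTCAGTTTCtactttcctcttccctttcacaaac
Isg15 (ISRE, chr4:156200850-156200909, - strand): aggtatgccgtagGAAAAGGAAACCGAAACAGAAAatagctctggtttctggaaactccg
Rsad2 (ISRE, chr12:26456538-26456597, - strand): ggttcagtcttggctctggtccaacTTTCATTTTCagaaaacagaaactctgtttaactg
Gbp2 (ISRE, chr3:142620579-142620638, + strand): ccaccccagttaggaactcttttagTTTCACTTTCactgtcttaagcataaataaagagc
Oas1a (ISRE, chr5:120907526-120907585, - strand): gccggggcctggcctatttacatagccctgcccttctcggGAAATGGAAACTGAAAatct
Oas1g (ISRE, chr5:120887614-120887673, - strand): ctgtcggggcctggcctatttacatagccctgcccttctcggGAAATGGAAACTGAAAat
Ifi205 (ISRE, chr1:174031855-174031914, - strand): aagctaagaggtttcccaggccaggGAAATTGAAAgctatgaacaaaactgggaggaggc
Ifi207 (ISRE, chr1:173741816-173741875, - strand): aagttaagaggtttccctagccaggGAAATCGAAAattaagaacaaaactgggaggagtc
Ifi208 (ISRE, chr1:173673582-173673641, + strand): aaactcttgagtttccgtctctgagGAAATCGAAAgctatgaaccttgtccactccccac
Irf1 (GAS, chr11:53769898-53769957, + strand): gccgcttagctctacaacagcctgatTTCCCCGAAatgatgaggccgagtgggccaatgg
Irf8 (GAS, chr8:120736179-120736238, + strand): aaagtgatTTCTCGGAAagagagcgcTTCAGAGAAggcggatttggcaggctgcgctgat

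The stretches of Ifit3 and Ifit3b were identical over all 60 bases, and those of Ifi205 and Ifi207 shared 52 of 60. The Oas1a and Oas1g stretches carry the same capitals, which hold 2 overlapping matches each. The ISRE match nearest the start lies 76 to 85 bases before it in Ifit1 and 5 to 14 bases before it in Oas1a. In lung against bladder, 12 of 26 tested members with the letters were lower in lung and 0 higher, and 11 of 21 without them were lower and 2 higher. Of all tested genes, 21.8% were lower and 19.2% higher in lung than in bladder. The median log2 differences of the members were -0.79 with and -0.73 without the letters.

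Values are normalized read counts unless another scale is named, and differences are log2(value + 1) differences from limma with their standard error (SE). A gene was called where the adjusted p (limma, Benjamini-Hochberg over all tested genes) was under 0.05. The libraries held 12.67 to 13.62 M reads in lung, 12.02 to 13.19 M in intestine and 9.72 to 10.95 M in bladder, as reconstructed from the spacing of the values. Genes were tested where 2 or more libraries reached a value of 10, which held for 18097 genes and 65 members. The 3 members not tested were Oas3, Ifitm5 and Gbp10, whose second-highest values were 7, 7 and 9. Just inside were Gbp11 (11), Mx1 (13) and Oas1e (14).

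All 12 smooth muscle marker genes were above 0 in each organ, with sums of 3602 to 3833 ppm of the library in lung, 3340 to 3602 ppm in intestine and 1921 to 2321 ppm in bladder. Markers of other cells were also read. The sum of 22 leukocyte markers was 237 to 290 ppm in lung, 344 to 402 ppm in intestine and 371 to 695 ppm in bladder, where Nkg7, Ms4a1, S100a9 and Cd3e were at 0. The sum of 12 epithelial markers was 71.3 to 113 ppm in lung, 1871 to 1961 ppm in intestine and 356 to 578 ppm in bladder. The sum of 16 fibroblast markers was 4716 to 5217 ppm in lung, 5789 to 6126 ppm in intestine and 7913 to 8638 ppm in bladder. The sum of 18 endothelial markers was 1527 to 1738 ppm in lung, 2522 to 2724 ppm in intestine and 862 to 1153 ppm in bladder. Urothelial markers, 10 in all, summed to 24.5 to 51.4 ppm in lung, 35.9 to 42.1 ppm in intestine and 742 to 1022 ppm in bladder. For 8 mesothelial markers the sums were 50.6 to 100 ppm, 317 to 333 ppm and 287 to 486 ppm. For 12 markers of lung epithelium they were 401 to 404 ppm, 66.2 to 73 ppm and 31.6 to 39.6 ppm. The part of these cells in the member differences was not tested. In such bulk RNA, fewer cells of a type and less RNA per cell cannot be told apart.

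Most called interferon-induced genes were lower in lung than in the other organs. Against bladder, 29 of 65 tested members were lower in lung (44.6%, against 21.8% of all tested genes) and 3 were higher (4.62%, against 19.2%). Against intestine, 29 were lower in lung (44.6%, against 23.6% of all tested genes) and 3 were higher (4.62%, against 15.9%). The median member differed by -0.73 in lung against bladder and by -0.79 in lung against intestine, where the median of all tested genes was 0.00 and -0.04. Between intestine and bladder the members divided: 16 were higher in intestine (24.6%, against 28.7% of all tested genes) and 23 lower (35.4%, against 23.3%), with a median of -0.04 beside 0.06 for all genes. With the members at 0 throughout an organ set to their bound, the medians were the same. Counting differences of at least 1 on the log2 scale, lung had 16 members below bladder (11.4% of all tested genes) and 1 above (11.2%). By the same count lung had 21 members below intestine (17.3%) and 2 above (6.08%), and intestine had 8 members below bladder (8.66%) and 12 above (20.2%).

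The called directions depend in part on the scaling between libraries. With the deposited scaling undone, which leaves reads uncorrected for the greater depth of lung and intestine, 10 members were higher and 14 lower in lung than in bladder, and 20 were higher and 9 lower in intestine than in bladder. Over all tested genes that setting gave 7947 higher and 1908 lower in lung, and 8316 higher and 1934 lower in intestine, than in bladder. The median over all genes was then 0.48 and 0.45. With quantile normalization, 6 members were higher and 19 lower in lung than in intestine, and 11 were higher and 29 lower in intestine than in bladder. All tested genes then had 4822 higher and 3580 lower in the first pair and 4258 higher and 5547 lower in the second. Counts by family and by list below are to be read beside these counts and the shares of all tested genes above.

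**Figure D1:**
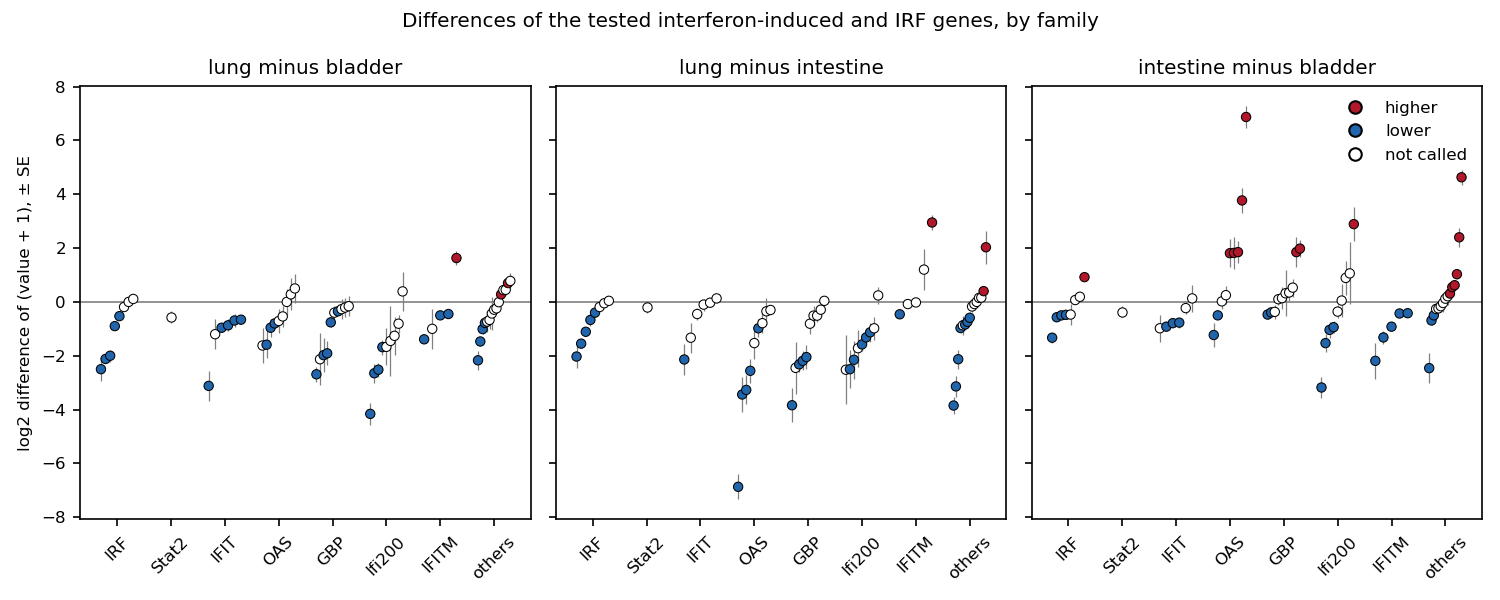
Log2 differences (± SE) of 63 tested members, with the lung minus bladder, lung minus intestine and intestine minus bladder panels side by side and members grouped by family on the horizontal axis. Filled red points were called higher, filled blue points lower, and open points were not called. In both lung panels most filled points lie below 0, whereas the intestine minus bladder panel has 15 above and 23 below.

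By pattern over the 3 organs, 16 members were lower in lung than in both other organs (9.37% of all tested genes had this pattern). They include Irf4, Irf5, Irf7, Irf8, Rsad2, Cmpk2, Ifi203, Ifi204, Ifi205, Gbp8 and Gbp9. That count was 11 without lung library 1, 9 without intestine library 2, 10 with the scaling undone or with only 2 organs in the fit, and 9 after quantile normalization. Ifi27 and Ifitm10 were higher in lung than in both, a pattern of 6.87% of all genes. In intestine, 13 members were higher than in both other organs (15.3% of all genes), among them Irf1, Gbp4, Ifi44, Ifi27l2b and 4 Oas1 genes, but 8 without intestine library 3 or after quantile normalization. In bladder, 19 members were higher than in both (13.5% of all genes), among them Ifit1, Ifit3, Ifit3b, Ifitm1, Ifitm2, Ifitm3, Usp18 and Irf9. The pattern held for 5 with the scaling undone, namely Ifi204, Ifi207, Ifit1, Ifitm1 and Irf5. 7 members had all 3 differences called in the order lung below intestine below bladder, namely Irf5, Irf7, Irf8, Ifi204, Ifi205, Ifi27l2a and Ifitm1 (2.58% of all genes). This last count rests on single libraries and settings: it was 3 without lung library 1, 2 without intestine library 2, 4 without intestine library 3, 3 with only 2 organs in the fit or with no trend in the prior, and 1 (Ifi204) with the scaling undone. No pair was called for 15 members, among them Stat2, Irf2, Irf3, Bst2 and Xaf1 (32.1% of all genes), and for 23 members with the scaling undone.

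**Figure D2:**
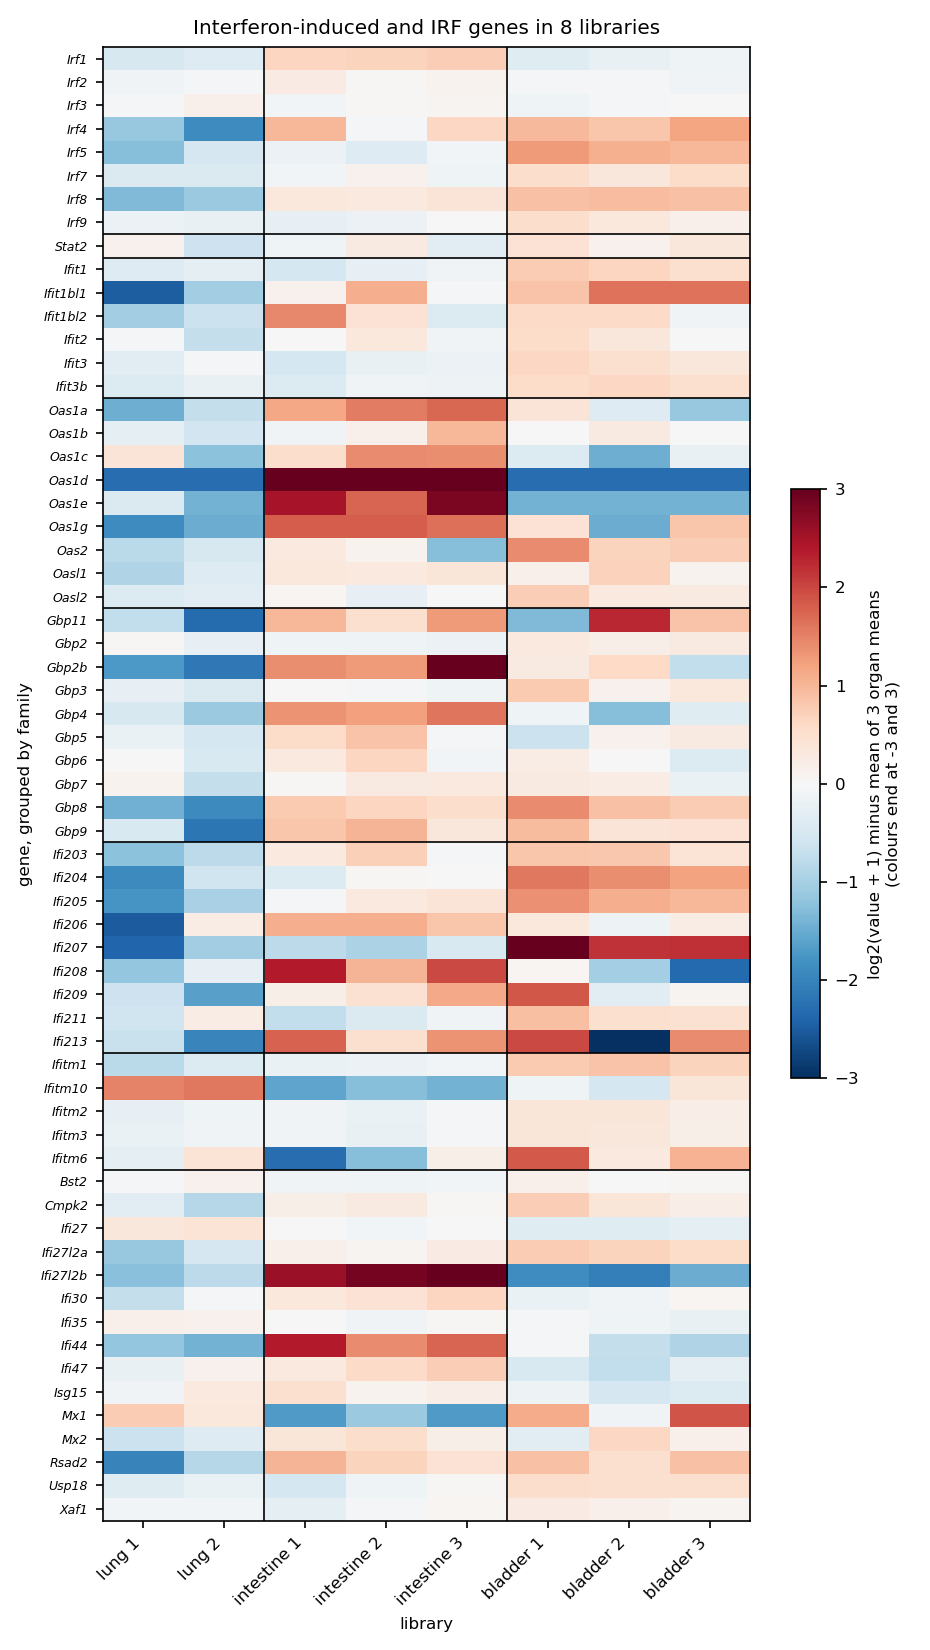
Each of 63 tested members (vertical, by family) in each of the 8 libraries (horizontal), as log2(value + 1) minus the mean of the 3 organ means. Colours end at -3 and 3. The lung columns are mostly blue, and blocks of red mark the intestine for the Oas1 genes and the bladder for Ifi204, Ifi205 and Ifi207.

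Interferons themselves were nearly absent from the table. Of 21 listed interferon genes, Ifng alone had a value, with 0 and 0 in lung, 1, 7 and 1 in intestine and 0 in each bladder library, and was not tested. Of 9 receptor and kinase genes, 1 was higher and 4 lower in lung than in bladder, 2 higher and 0 lower in lung than in intestine, and 1 higher and 4 lower in intestine than in bladder. With the scaling undone the counts against bladder were 3 higher and 0 lower in lung, and 3 higher and 1 lower in intestine. Ifnar1, the first chain of the type I receptor, averaged 1454 ± 207 in lung, 1107 ± 55.9 in intestine and 2101 ± 108 in bladder (SD, n = 2, 3 and 3). It was lower by -0.54 (SE 0.10) in lung and by -0.92 (SE 0.09) in intestine than in bladder (limma, Benjamini-Hochberg adjusted p = 0.00243 and 2.91e-05). The lung call of Ifnar1 was lost with the scaling undone, where 0 of the 9 genes were lower. Ifngr2, the second chain of the interferon gamma receptor, went the other way in lung, with 1880 ± 240 in lung, 1435 ± 78.4 in intestine and 1304 ± 25.8 in bladder. Its difference from bladder was 0.52 (SE 0.09) in lung (limma, Benjamini-Hochberg adjusted p = 0.00187) and 0.14 (SE 0.08) in intestine (adjusted p = 0.201).

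Of 15 measured sensors of foreign nucleic acid and their adaptors, 0 were higher and 7 lower in lung than in bladder, but 3 and 3 with the scaling undone. Against intestine, 2 were higher and 4 lower in lung, and 1 was higher and 3 lower in intestine than in bladder, but 4 and 1 with the scaling undone. Aim2, a DNA sensor that starts the inflammasome, had 0 and 0 in lung, 270, 215 and 207 in intestine and 16, 10 and 14 in bladder, with no overlap between organs. Tlr3, the endosomal receptor for double-stranded RNA, had 165 and 123 in lung, 297, 297 and 348 in intestine and 421, 375 and 258 in bladder. Its lung values were below all others, with a log2 difference of -1.27 (SE 0.23) from bladder and -1.13 (SE 0.23) from intestine (limma, Benjamini-Hochberg adjusted p = 0.00212 and 0.00411). Sting1, the adaptor of the cytosolic DNA pathway, had 746 and 1339 in lung, 468, 506 and 393 in intestine and 731, 691 and 730 in bladder. It was 1.14 (SE 0.22) higher in lung than in intestine on the log2 scale (limma, Benjamini-Hochberg adjusted p = 0.00267).

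Among the 9 IRF genes, 0 were higher and 5 lower in lung than in bladder, but 3 and 3 with the scaling undone. Of all 18097 tested genes, 19.2% were higher and 21.8% lower in lung than in bladder. With the scaling undone, 7947 of all tested genes were higher and 1908 lower. Against intestine, 0 were higher and 6 lower in lung. Between intestine and bladder 2 were higher and 4 lower in intestine, but 4 and 1 with the scaling undone.

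Irf8 (chromosome 8, 121463097 to 121483433, mm39), which directs monocyte, macrophage and dendritic cell formation, had 567 and 654 in lung, 1765, 1750 and 1853 in intestine and 2622, 2709 and 2625 in bladder. The 3 organs did not overlap and were ordered lung, intestine, bladder. Irf8 differed by -2.12 (SE 0.08) in lung against bladder, by -1.55 (SE 0.08) in lung against intestine and by -0.57 (SE 0.07) in intestine against bladder (limma, Benjamini-Hochberg adjusted p = 2.78e-07, 1.12e-06 and 0.000155). With the scaling undone the intestine difference from bladder was -0.17 (adjusted p = 0.0959). Irf5, which acts downstream of Toll-like receptors, had 176 and 303 in lung, 377, 327 and 405 in intestine and 1045, 896 and 853 in bladder. Bladder stood above both other organs, by a log2 difference of -2.0 (SE 0.22) in lung and -1.33 (SE 0.19) in intestine (limma, Benjamini-Hochberg adjusted p = 9.19e-05 and 0.000357). The call in lung against intestine (-0.67, SE 0.22, adjusted p = 0.0356) was lost when lung library 1 was left out (-0.28, adjusted p = 0.205), and also without each intestine library in turn.

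Irf7, the amplifier of type I interferon production, had 393 and 395 in lung, 501, 578 and 487 in intestine and 762, 670 and 779 in bladder, with no overlap between organs. It differed by -0.90 (SE 0.12) in lung and by -0.50 (SE 0.11) in intestine from bladder (limma, Benjamini-Hochberg adjusted p = 0.000364 and 0.00398), but by -0.39 and -0.10 with the scaling undone, where neither was called. Its lung against intestine call (-0.40, adjusted p = 0.0277) was lost without intestine library 2 (-0.33, adjusted p = 0.0838), lung library 1 or lung library 2. Irf9, the DNA-binding partner of STAT proteins, had 889 and 856 in lung, 844, 886 and 987 in intestine and 1440, 1244 and 1113 in bladder, and was lower than in bladder in both (log2 difference -0.53, SE 0.12, in lung and -0.48, SE 0.11, in intestine; limma, Benjamini-Hochberg adjusted p = 0.0068 and 0.00471). Both calls were lost with the scaling undone (-0.02 and -0.08). Irf4, known from lymphocytes, was low, at 9 and 5 in lung, 43, 20 and 33 in intestine and 42, 38 and 49 in bladder. Its lung values were below all others (log2 difference -2.50, SE 0.44, against bladder and -2.03, SE 0.44, against intestine, limma with Benjamini-Hochberg adjusted p = 0.00178 and 0.00586). After quantile normalization the second call was lost (-1.17, adjusted p = 0.0609).

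The 22 leukocyte markers include several macrophage genes, of which only Adgre1 and Cd68 are given here. Adgre1 averaged 26 ± 28.3 in lung, 62.7 ± 5.86 in intestine and 388 ± 209 in bladder, and Cd68 120 ± 60.1 in lung, 94.7 ± 15.8 in intestine and 487 ± 170 in bladder. Both were lower in lung and in intestine than in bladder (limma, Benjamini-Hochberg adjusted p = 0.00111 and 0.00851 for Adgre1, 0.00164 and 0.000261 for Cd68). Between lung and intestine neither was called, with a log2 difference of -1.81 (adjusted p = 0.0692) for Adgre1 and 0.26 (adjusted p = 0.592) for Cd68. Over the 22 leukocyte markers, 9 were higher and 6 lower in lung than in bladder, 3 higher and 6 lower in lung than in intestine, and 8 higher and 6 lower in intestine than in bladder. Their median log2 difference from bladder was 0.56 in lung and 0.78 in intestine. The part of these markers in the IRF differences was not tested.

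Irf1 (chromosome 11, 53660841 to 53669200, mm39), an early target of interferon gamma, was highest in intestine, with 1131 and 1210 in lung, 2472, 2495 and 2622 in intestine and 1229, 1359 and 1436 in bladder. The intestine values lay above all others. Irf1 was higher in intestine than in bladder by 0.92 (SE 0.08) and lower in lung than in intestine by -1.11 (SE 0.09) on the log2 scale (limma, Benjamini-Hochberg adjusted p = 1.04e-05 and 9.67e-06).

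Irf2, an antagonist of Irf1 at shared sites, and Irf3, the constitutive factor that starts interferon transcription, were not called in any pair. Irf2 had 722 and 750 in lung, 920, 784 and 829 in intestine and 750, 743 and 722 in bladder. Irf3 had 1137 and 1303 in lung, 1105, 1201 and 1251 in intestine and 1067, 1149 and 1162 in bladder, with overlap between organs. With the scaling undone both were called higher than in bladder, Irf2 by 0.51 in lung and 0.59 in intestine (adjusted p = 0.00462 and 0.00107) and Irf3 by 0.62 in lung and 0.47 in intestine (adjusted p = 0.00227 and 0.00511). With equal totals Irf2 was also called higher in intestine (0.28, adjusted p = 0.0249). Stat2 had 888 and 534 in lung, 751, 983 and 650 in intestine and 1106, 896 and 1040 in bladder. Its lung libraries differed from each other by more than the organ means did, and its lung difference from bladder was -0.55 (SE 0.23, limma with Benjamini-Hochberg adjusted p = 0.0832), but -0.92 (adjusted p = 0.0119) without lung library 1.

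**Figure D3:**
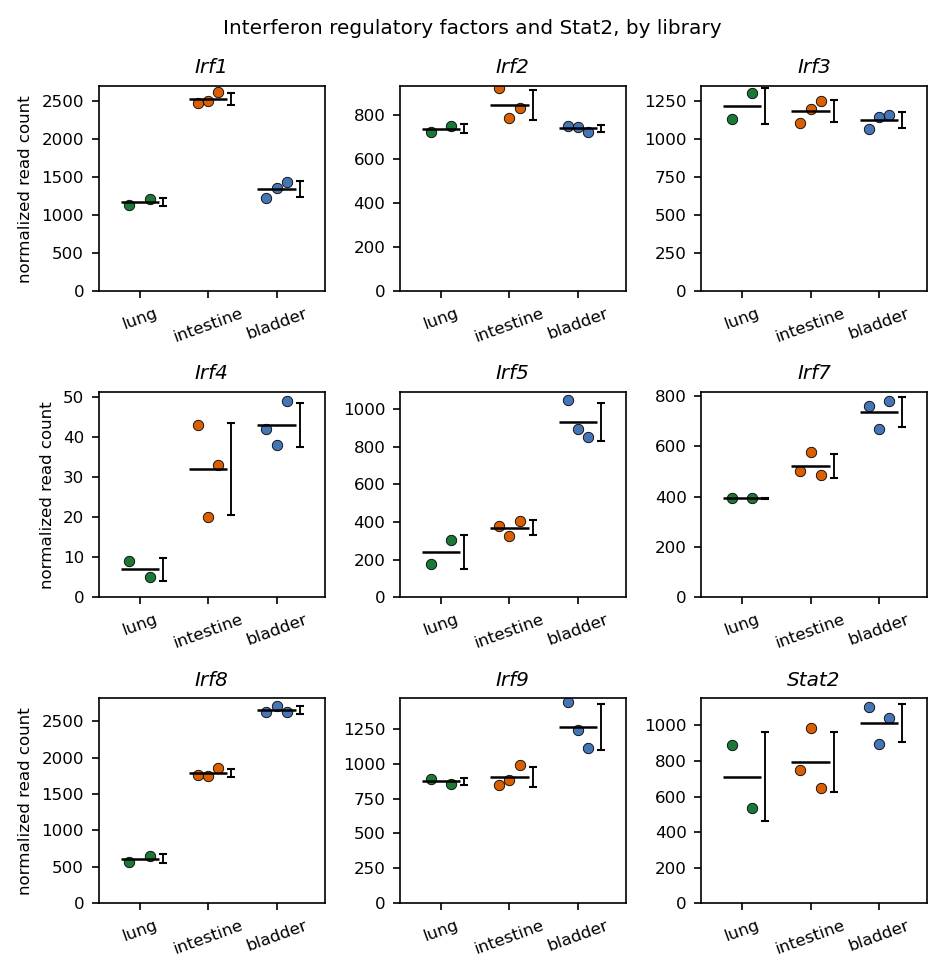
Normalized read counts of 8 IRF genes and Stat2, with 1 point for each library, the organ mean as a horizontal line and its SD as a bar, and lung, intestine and bladder from left to right. Irf8 is lowest in lung and highest in bladder, Irf1 stands apart in intestine and Irf5 in bladder, and the organs overlap for Irf3.

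The 6 IFIT genes, which bind RNA that lacks the marks of self, lie together on chromosome 19 (Ifit2 at 34528094 to Ifit1 ending at 34627409, mm39). All 6 had their lung values below every bladder value (29.5% of all tested genes), and 5 were called lower in lung than in bladder with 0 higher, or 2 lower with the scaling undone. Between intestine and bladder 0 were higher and 3 lower, and between lung and intestine 0 were higher and 1 lower, but 1 higher and 0 lower after quantile normalization. Ifit1 had 298 and 325 in lung, 270, 328 and 366 in intestine and 660, 611 and 549 in bladder. Lung and intestine overlapped, and bladder stood above both, with log2 differences of -0.96 (SE 0.16) in lung and -0.92 (SE 0.14) in intestine (limma, Benjamini-Hochberg adjusted p = 0.00118 and 0.00049). Ifit3 had 348 and 418 in lung, 300, 370 and 383 in intestine and 663, 604 and 547 in bladder, and Ifit3b 85 and 96 in lung, 85, 105 and 101 in intestine and 166, 174 and 157 in bladder. In both, bladder stood above the other organs, which overlapped, and 51.2% of the 50-base stretches of Ifit3 also occur in another gene, chiefly Ifit3b, so reads could be split between them. With the scaling undone Ifit3 was no longer called in lung against bladder (-0.15, adjusted p = 0.446), nor was Ifit3b in lung (-0.36, adjusted p = 0.204) or intestine (-0.38, adjusted p = 0.134). Ifit2 averaged 364 ± 116 in lung, 490 ± 77.4 in intestine and 578 ± 107 in bladder, and its call in lung against bladder (-0.69, SE 0.23, adjusted p = 0.0395) was lost without lung library 2 (-0.36, adjusted p = 0.283), bladder library 1 or bladder library 2. Ifit1bl1 was low, with 2 and 7 in lung, 17, 34 and 15 in intestine and 29, 50 and 50 in bladder, and was lower in lung than in bladder by -3.12 (SE 0.57, limma with Benjamini-Hochberg adjusted p = 0.00198). Its lung call against intestine (-2.14, adjusted p = 0.0149) was lost without lung library 1 (-1.43, adjusted p = 0.0946) or intestine library 2.

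The OAS genes make the 2-5A messenger that activates RNase L, or are relatives without that activity, and the mouse Oas1 copies lie on chromosome 5 (Oas1e at 120924291 to Oas1d ending at 121059715, mm39). Of 9 tested OAS genes, intestine had 5 above bladder and 2 below it, but 3 and 3 after quantile normalization. In lung 0 were higher and 5 lower than in intestine, and 0 higher and 3 lower than in bladder, but 0 and 0 with the scaling undone. The genes higher in intestine than in bladder were Oas1a, Oas1c, Oas1d, Oas1e and Oas1g, and the genes lower in intestine than in bladder were Oas2 and Oasl2.

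Markers of gut cells were also highest in intestine. The sum of 12 markers of intestinal epithelium was 38.6 to 63.3 ppm in lung, 1328 to 1440 ppm in intestine and 59 to 66.3 ppm in bladder, with Tff3, Cdx1 and Cdx2 at 0 in lung and those and Alpi and Phgr1 at 0 in bladder. Of the 12, 11 were higher and 0 lower in intestine than in bladder, 0 higher and 11 lower in lung than in intestine, and 0 higher and 1 lower in lung than in bladder. The sum of 12 markers of enteric neurons and glia was 54.8 to 75.4 ppm in lung, 329 to 378 ppm in intestine and 42.8 to 50.3 ppm in bladder, with Sox10 and Chat among those at 0 in lung and Vip and Chat at 0 in bladder. Of these, 12 were higher and 0 lower in intestine than in bladder, 0 higher and 11 lower in lung than in intestine, and 2 higher and 2 lower in lung than in bladder. The part of these cells in the members that were highest in intestine was not tested.

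Oas1d, known in mice from the ovary, had 0 and 0 in lung, 82, 165 and 114 in intestine and 0 in each bladder library. With a floor of 3 reads per library it was at least 33.3-fold higher in intestine than in bladder and at least 47.5-fold lower in lung than in intestine. Oas1e had 1 and 0 in lung, 14, 8 and 18 in intestine and 0 in each bladder library, at least 3.69-fold higher in intestine than in bladder. Oas1a, an active synthetase, had 25 and 43 in lung, 160, 208 and 236 in intestine and 93, 54 and 32 in bladder, with intestine above both others. It was higher by 1.85 (SE 0.40) in intestine than in bladder and lower by -2.56 (SE 0.45) in lung than in intestine (limma, Benjamini-Hochberg adjusted p = 0.00369 and 0.00163). Oas1g had 2 and 3 in lung, 38, 38 and 34 in intestine and 14, 3 and 19 in bladder, and its call against bladder (1.82, SE 0.59, adjusted p = 0.0271) was lost without bladder library 2 (1.12, adjusted p = 0.0547) or without any 1 intestine library. Of its 50-base stretches, 45.7% occur in another gene, and of those of Oas1a 57.6%, each chiefly in the other. Oas1c had 39 and 12 in lung, 43, 80 and 79 in intestine and 22, 10 and 25 in bladder, and its intestine call against bladder (1.81, SE 0.53, adjusted p = 0.0172) was lost without bladder library 2 (1.43, adjusted p = 0.0615), intestine library 2 or intestine library 3.

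Oas2, the middle-sized synthetase, had 24 and 30 in lung, 52, 46 and 17 in intestine and 115, 68 and 72 in bladder, with bladder above both others. Its 2 calls against bladder (limma, Benjamini-Hochberg adjusted p = 0.0307 for lung and 0.0434 for intestine) were lost without bladder library 1 (-1.35 in lung, adjusted p = 0.0898, and -1.0 in intestine, adjusted p = 0.137) and without several other single libraries. Oasl2, a ubiquitin-like relative, averaged 560 ± 19.1 in lung, 691 ± 76.9 in intestine and 985 ± 182 in bladder, and was lower by -0.80 (SE 0.16) in lung and by -0.50 (SE 0.14) in intestine than in bladder (limma, Benjamini-Hochberg adjusted p = 0.0029 and 0.0134), the intestine call being lost without intestine library 2 (-0.41, adjusted p = 0.0573). Both Oasl2 calls were lost with the scaling undone (-0.29 and -0.11). Oas3, the largest synthetase, was not tested, with 0 and 0 in lung, 5, 5 and 0 in intestine and 20, 1 and 7 in bladder.

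The GBP genes encode large GTPases that are strongly induced by interferon gamma, in a cluster on chromosome 3 (Gbp5, Gbp7, Gbp3, Gbp2b, Gbp2) and one on chromosome 5 (Gbp8, Gbp9, Gbp4, Gbp10, Gbp6, Gbp11). Of 10 tested, 0 were higher and 5 lower in lung than in bladder, or 2 lower with the scaling undone, and 0 higher and 4 lower in lung than in intestine. Between intestine and bladder 2 were higher and 2 lower, but 1 and 3 after quantile normalization and 2 and 0 with the scaling undone. Gbp4 had 96 and 61 in lung, 342, 314 and 407 in intestine and 122, 55 and 104 in bladder. Intestine stood above both others, by 1.98 (SE 0.32) over bladder, and lung was -2.19 (SE 0.35) below it (limma, Benjamini-Hochberg adjusted p = 0.000607 and 0.00101). Gbp8 had 35 and 25 in lung, 166, 151 and 138 in intestine and 259, 178 and 163 in bladder. Here lung stood below both others, by -2.69 (SE 0.28) against bladder and -2.32 (SE 0.28) against intestine (limma, Benjamini-Hochberg adjusted p = 6.83e-05 and 0.000168). Gbp9 had 137 and 41 in lung, 336, 386 and 241 in intestine and 367, 248 and 255 in bladder, and lung was again below both others, by -1.91 (SE 0.44) against bladder and -2.05 (SE 0.44) against intestine (limma, Benjamini-Hochberg adjusted p = 0.00741 and 0.0054). Gbp4, Gbp8 and Gbp9 overlap on the same strand, so how reads were shared among them is uncertain.

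Gbp2b was low outside intestine, with 3 and 2 in lung, 34, 31 and 107 in intestine and 15, 19 and 7 in bladder. Its difference of -3.84 (SE 0.64) in lung against intestine held without each library in turn (limma, Benjamini-Hochberg adjusted p = 0.0012). The intestine call against bladder (1.85, adjusted p = 0.0217) was lost without intestine library 3 (1.29, adjusted p = 0.0725) or bladder library 3, and the lung call against bladder (-1.98, adjusted p = 0.0331) without any of 4 libraries. Gbp2, the most abundant of the family per length of exon, averaged 1276 ± 183 in lung, 1233 ± 26 in intestine and 1622 ± 64.6 in bladder. It was lower by -0.39 (SE 0.09) in intestine than in bladder (limma, Benjamini-Hochberg adjusted p = 0.00389), and by 0.00 with the scaling undone. Its lung call against bladder (-0.35, adjusted p = 0.0164) was lost without lung library 2 (-0.21, adjusted p = 0.0761) or bladder library 1. Gbp3 was highest in bladder, with 470 ± 43.8 in lung, 572 ± 26 in intestine and 807 ± 192 in bladder, and its call in intestine against bladder was lost without bladder library 1 (-0.29, adjusted p = 0.0957). Gbp5, Gbp6, Gbp7 and Gbp11 were not called in any pair, with organ means of 1 to 678 in lung, 8.67 to 931 in intestine and 10.7 to 872 in bladder. For Gbp6, 70.7% of the 50-base stretches also occur in other genes, chiefly Gm43302 and Gbp10, and its values are therefore uncertain.

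The 9 measured Ifi200 genes encode proteins with pyrin and HIN domains, several of which bind DNA in the nucleus or cytosol. They lie within 1 stretch of chromosome 1 (Ifi206 at 173296051 to Ifi205 ending at 173859376, mm39). Of the 9, 0 were higher and 4 lower in lung than in bladder, 0 were higher and 5 lower in lung than in intestine, but 1 and 1 with quantile normalization, and 1 was higher and 4 lower in intestine than in bladder. Ifi207 had 15 and 39 in lung, 47, 42 and 59 in intestine and 661, 369 and 375 in bladder. Bladder stood above both others, by a log2 difference of -4.16 (SE 0.42) in lung and -3.18 (SE 0.38) in intestine (limma, Benjamini-Hochberg adjusted p = 6.31e-05 and 9.84e-05). Ifi204 had 37 and 93 in lung, 106, 146 and 140 in intestine and 430, 373 and 329 in bladder, and Ifi205 59 and 103 in lung, 196, 248 and 265 in intestine and 524, 434 and 404 in bladder. Neither gene overlapped between organs. Ifi205 differed by -2.52 (SE 0.26) in lung against bladder, -1.58 (SE 0.26) in lung against intestine and -0.94 (SE 0.23) in intestine against bladder (limma, Benjamini-Hochberg adjusted p = 6.38e-05, 0.00109 and 0.00709). The last was not called with the scaling undone (-0.55, adjusted p = 0.0631). For Ifi204 the lung against intestine call (-1.13, adjusted p = 0.0318) was lost without lung library 1 (-0.47, adjusted p = 0.172), intestine library 2 or intestine library 3.

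Ifi208 had 8 and 16 in lung, 103, 40 and 79 in intestine and 20, 9 and 3 in bladder. Intestine stood above both others, by 2.89 (SE 0.64) over bladder (limma, Benjamini-Hochberg adjusted p = 0.00414). The promoter stretch of Ifi208 was the same as that of Ifi213 in 60 of 60 bases. Ifi213 was not called in any pair, with SEs of 1.15 to 1.29 and a lung difference from intestine of -2.52. No difference between the 2 genes was tested. Of the 50-base stretches of Ifi208, 20.8% also occur in other genes, chiefly Ifi213. The Ifi208 call in lung against intestine (-2.50, adjusted p = 0.021) was lost without lung library 1 (-2.04, adjusted p = 0.113), intestine library 1 or intestine library 3. Ifi203 had 52 and 71 in lung, 149, 201 and 119 in intestine and 218, 214 and 163 in bladder, with lung below both others by -1.68 (SE 0.28) and -1.32 (SE 0.28) against bladder and intestine (limma, Benjamini-Hochberg adjusted p = 0.00128 and 0.00519). After quantile normalization the call against intestine was lost (-0.60, adjusted p = 0.119). Of the 50-base stretches of Ifi211, 72.8% also occur in other genes, chiefly Ifi205 and Ifi204, and its values are therefore uncertain. Ifi211 had 59 and 104 in lung, 53, 66 and 83 in intestine and 167, 126 and 124 in bladder, and its intestine call against bladder (-1.04, SE 0.29, adjusted p = 0.0144) was lost without bladder library 1 (-0.91, adjusted p = 0.0545) or intestine library 1. Ifi206 was low, with 1 and 12 in lung, 23, 23 and 19 in intestine and 13, 9 and 12 in bladder, and its lung call against intestine (-2.15, SE 0.70, adjusted p = 0.0372) was lost without lung library 1 (-0.80, adjusted p = 0.225) or any 1 intestine library. Adgre1 and Cd68, given after the IRF genes, were lower in lung and in intestine than in bladder, and neither was called between lung and intestine. The 22 leukocyte markers were divided against bladder, with 9 higher and 6 lower in lung and 8 higher and 6 lower in intestine. The part of these markers in the Ifi200 differences was not tested.

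The IFITM genes encode small membrane proteins, of which IFITM1, IFITM2 and IFITM3 block virus entry. All 5 tested were lower in intestine than in bladder, or 3 of them with the scaling undone. In lung 1 was higher and 3 lower than in bladder, but 1 and 1 with the scaling undone, and 1 was higher and 1 lower than in intestine, but 2 and 1 with quantile normalization. Ifitm1 had 371 and 492 in lung, 567, 578 and 621 in intestine and 1138, 1178 and 1041 in bladder. The organs did not overlap, and Ifitm1 was lower than in bladder by -1.39 (SE 0.13) in lung and -0.92 (SE 0.12) in intestine (limma, Benjamini-Hochberg adjusted p = 4.37e-05 and 0.000158). Its lung against intestine call (-0.46, adjusted p = 0.0217) was lost without lung library 1 (-0.26, adjusted p = 0.0928), intestine library 2 or intestine library 3. Ifitm3, the best-studied antiviral member, had 988 and 1059 in lung, 1051, 972 and 1085 in intestine and 1457, 1448 and 1288 in bladder. Bladder stood above, by a log2 difference of -0.45 (SE 0.09) in lung and -0.43 (SE 0.08) in intestine, but 0.06 and -0.04 with the scaling undone. Ifitm2 was alike, with 412 ± 23.3 in lung, 436 ± 25 in intestine and 585 ± 37 in bladder, and both differences lost with the scaling undone (0.01 and -0.03). For Ifitm2, 48.5% of the 50-base stretches also occur in other genes, so reads could be split.

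The small differences of Ifitm3 stand beside a shift of the most densely read genes. With 1.71 reads per nt of exon, Ifitm3 belongs to 339 genes of at least 1 read per nt, whose median log2 difference was -0.42 in lung against bladder, -0.02 in lung against intestine and -0.40 in intestine against bladder. The part of this shift in the Ifitm3 difference was not tested. Ifitm10, a divergent relative of the antiviral members, had another order, with 464 and 494 in lung, 55, 68 and 61 in intestine and 151, 114 and 213 in bladder. The organs did not overlap, and lung was highest: Ifitm10 was higher in lung by 1.63 (SE 0.27) than in bladder and by 2.95 (SE 0.27) than in intestine (limma, Benjamini-Hochberg adjusted p = 0.00122 and 3e-05). Ifitm6 was low, with 7 and 12 in lung, 1, 3 and 10 in intestine and 34, 11 and 19 in bladder, and its intestine call against bladder (-2.19, adjusted p = 0.0217) was lost without bladder library 1 (-1.80, adjusted p = 0.0795), bladder library 3, intestine library 1 or intestine library 2.

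The 3 Ifi27 genes, which encode small hydrophobic proteins and are neighbours on chromosome 12 (103400470 to 103423482, mm39), each had another order of organs. Ifi27 was highest in lung, with 1549 and 1622 in lung, 1226, 1156 and 1231 in intestine and 950, 949 and 1024 in bladder. It was higher in lung by 0.70 (SE 0.08) than in bladder and by 0.40 (SE 0.08) than in intestine, and higher in intestine than in bladder by 0.31 (SE 0.07; limma, Benjamini-Hochberg adjusted p = 0.000126, 0.00377 and 0.00578). Ifi27l2b was highest in intestine, with 25 and 35 in lung, 375, 453 and 501 in intestine and 16, 14 and 21 in bladder. Its intestine mean was 26.1 times the bladder mean, and it was lower in lung than in intestine by -3.85 (SE 0.31; limma, Benjamini-Hochberg adjusted p = 1.57e-06 for intestine against bladder and 1.28e-05 for lung against intestine). Ifi27l2a was highest in bladder, with 255 and 398 in lung, 624, 597 and 662 in intestine and 949, 897 and 819 in bladder. It was lower in lung than in bladder by -1.47 (SE 0.17; limma, Benjamini-Hochberg adjusted p = 0.000156), while its intestine call against bladder (-0.50, adjusted p = 0.0233) was lost without bladder library 1 (-0.45, adjusted p = 0.078), bladder library 2, intestine library 1 or intestine library 2. Ifi27l2a is also densely read, with 1.36 reads per nt, and the shift of such genes given beside Ifitm3 applies to it.

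Rsad2, which makes the chain-terminating nucleotide ddhCTP and is known as viperin, and its neighbour Cmpk2, a mitochondrial nucleotide kinase, were both lower in lung. Rsad2 had 21 and 48 in lung, 178, 139 and 118 in intestine and 161, 123 and 161 in bladder, and differed by -2.17 (SE 0.36) from bladder and -2.13 (SE 0.36) from intestine (limma, Benjamini-Hochberg adjusted p = 0.00122 and 0.00138). Intestine and bladder overlapped. Cmpk2 had 398 and 270 in lung, 553, 596 and 505 in intestine and 816, 631 and 561 in bladder, and was lower in lung than in bladder by -1.01 (SE 0.20, adjusted p = 0.00333), but by -0.50 (adjusted p = 0.0743) with the scaling undone. Its lung call against intestine (-0.74, adjusted p = 0.0163) was lost without lung library 2 (-0.47, adjusted p = 0.127) or intestine library 2.

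Isg15, the ubiquitin-like modifier, and Usp18, the protease that removes it and dampens the type I receptor, were not alike. Isg15 had 242 and 323 in lung, 367, 281 and 301 in intestine and 235, 183 and 197 in bladder, and was higher in intestine than in bladder by 0.62 (SE 0.18, limma with Benjamini-Hochberg adjusted p = 0.0159), a call lost without bladder library 2 (0.54, adjusted p = 0.0601) or intestine library 1 and after quantile normalization (0.22, adjusted p = 0.335). Isg15 was also called higher in lung than in bladder with equal totals (0.60, adjusted p = 0.0402), with the scaling undone (0.96, adjusted p = 0.00365) and without lung library 1 (0.66, adjusted p = 0.041). Usp18 had 206 and 233 in lung, 185, 246 and 274 in intestine and 383, 372 and 372 in bladder, with bladder above both others. It was lower by -0.78 (SE 0.19) in lung and by -0.69 (SE 0.17) in intestine than in bladder (limma, Benjamini-Hochberg adjusted p = 0.00881 and 0.0065), and by -0.26 and -0.30 with the scaling undone, where neither was called. Usp18 overlaps Gm44148 on the other strand, and the kit does not mark strand. Irf1 (with Gm17334), Irf2 (Gm45481), Irf3 (Bcl2l12), Irf5 (Tnpo3), Irf7 (Phrf1) and Ifi30 (6330537M06Rik) also overlap genes on the other strand in part. The part of such reads in their values was not tested. Bst2, which tethers budding viruses to the cell, averaged 754 ± 67.9 in lung, 679 ± 6.24 in intestine and 760 ± 45.9 in bladder, and Xaf1, a partner of the apoptosis inhibitor XIAP, 300 ± 0.707 in lung, 301 ± 35.8 in intestine and 354 ± 21 in bladder. Neither was called in any pair, but with the scaling undone Bst2 was called higher in lung than in bladder (0.50, adjusted p = 0.00561).

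Of the remaining IFI genes, Ifi44, Ifi47 and Ifi30 were higher in intestine than in both other organs. Ifi44 had 24 and 20 in lung, 292, 148 and 186 in intestine and 53, 33 and 29 in bladder, with no overlap between organs. It was higher in intestine than in bladder by 2.40 (SE 0.35) and lower in lung than in intestine by -3.14 (SE 0.39; limma, Benjamini-Hochberg adjusted p = 0.000333 and 0.000207). Ifi47, an immunity-related GTPase, had 290 and 369 in lung, 416, 509 and 565 in intestine and 245, 204 and 281 in bladder, and was higher in intestine than in bladder by 1.03 (SE 0.18; limma, Benjamini-Hochberg adjusted p = 0.000944). Its lung call against intestine (-0.59, adjusted p = 0.0399) was lost without lung library 1 (-0.42, adjusted p = 0.18), intestine library 2 or intestine library 3, and Ifi47 lies within Or2v1 on the same strand. Ifi30, a lysosomal thiol reductase of antigen processing, averaged 371 ± 117 in lung, 651 ± 75.5 in intestine and 443 ± 40.7 in bladder. It was lower in lung than in intestine by -0.84 (SE 0.20, limma with Benjamini-Hochberg adjusted p = 0.00777), and its intestine call against bladder (0.55, adjusted p = 0.0241) was lost without intestine library 3 (0.47, adjusted p = 0.097), intestine library 2, bladder library 1 or bladder library 2. Ifi35 averaged 922 ± 9.19 in lung, 825 ± 41.8 in intestine and 762 ± 52 in bladder, and its lung call against bladder (0.28, adjusted p = 0.0458) was lost in 11 of 15 alternatives, as without bladder library 3 (0.23, adjusted p = 0.129).

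Mx1, a dynamin-like GTPase against influenza virus in mice, was near the limit of the test, with 10 and 7 in lung, 1, 2 and 1 in intestine and 13, 5 and 23 in bladder. It was lower in intestine than in bladder by -2.46 (SE 0.56, limma with Benjamini-Hochberg adjusted p = 0.00472), and its lung call against intestine (2.03, adjusted p = 0.0283) was lost without lung library 1 (1.81, adjusted p = 0.111), lung library 2, intestine library 1 or intestine library 3. Mx2 averaged 33 ± 4.24 in lung, 61.3 ± 7.51 in intestine and 54.7 ± 17.6 in bladder and was not called.

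**Figure D4:**
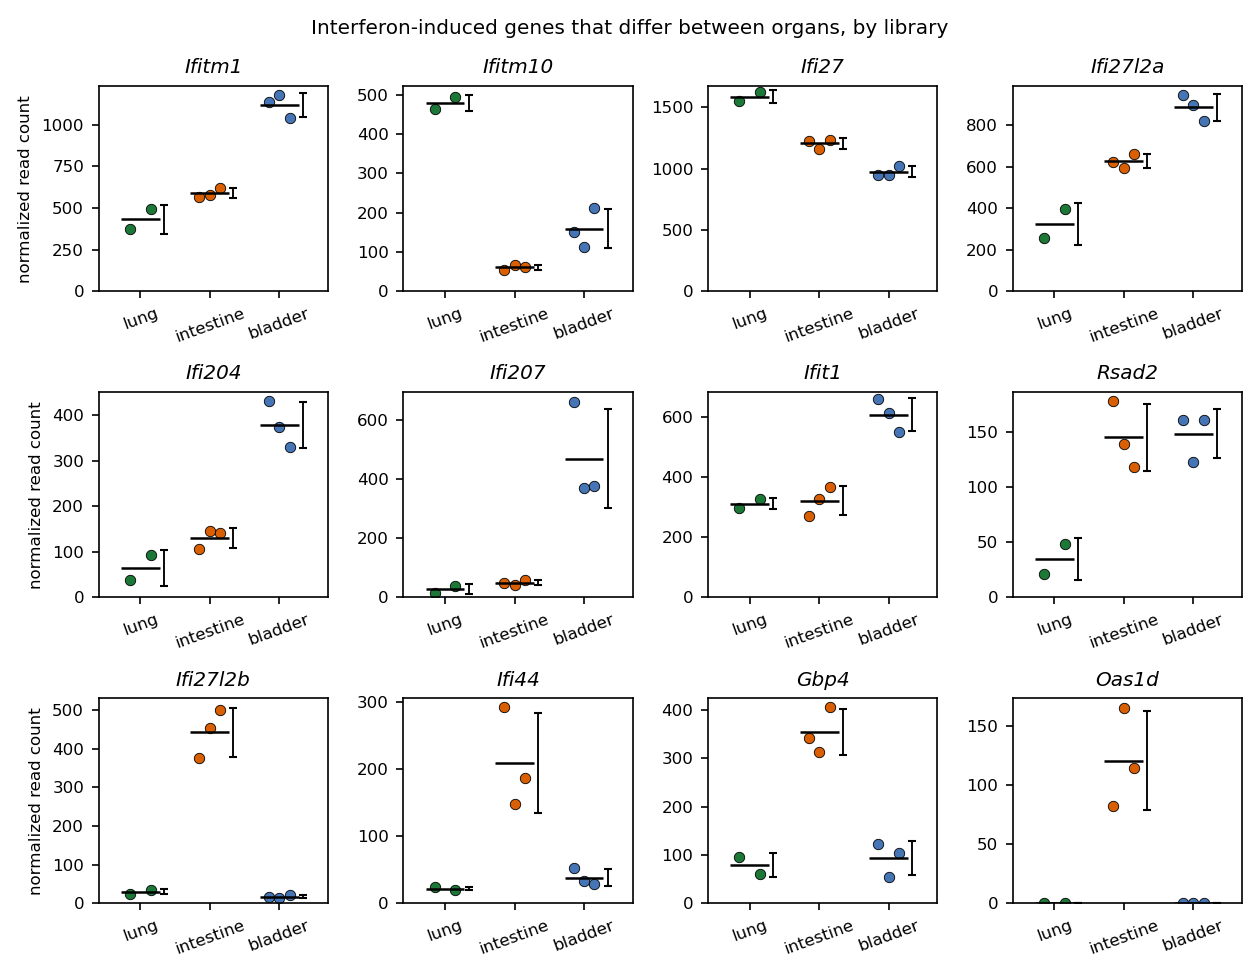
Normalized read counts of 12 members by library, with the organ mean as a line and its SD as a bar, and lung, intestine and bladder from left to right. Ifitm10 and Ifi27 are highest in lung, Ifi27l2b, Ifi44, Gbp4 and Oas1d in intestine, and Ifitm1, Ifi27l2a, Ifi204, Ifi207 and Ifit1 in bladder, while Rsad2 is low in lung alone among the 3 organs.

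Other interferon-induced genes outside the families, 38 in all, had 1 higher and 15 lower in lung than in bladder, but 11 and 4 with the scaling undone. Against intestine 1 was higher and 14 lower in lung. In intestine 11 were higher and 6 lower than in bladder, but 6 and 8 after quantile normalization and 20 and 3 with the scaling undone. Lgals3bp, a secreted glycoprotein, averaged 1786 ± 228 in lung, 3071 ± 103 in intestine and 4116 ± 287 in bladder, the order of Irf8. Ube2l6, the conjugating enzyme of ISG15, averaged 959 ± 153 in lung, 758 ± 9.29 in intestine and 1380 ± 31.8 in bladder, and was lower than in bladder by -0.53 (SE 0.10) in lung and -0.86 (SE 0.09) in intestine (limma, Benjamini-Hochberg adjusted p = 0.00296 and 5.26e-05).

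Of 19 genes typical of interferon gamma (immunity-related GTPases, MHC class I and its loading machinery), 3 were higher and 6 lower in lung than in bladder, but 8 and 0 with the scaling undone. In lung 1 was higher and 10 lower than in intestine, and in intestine 11 were higher and 3 lower than in bladder. Iigp1, an immunity-related GTPase, was high in lung, with 1802 ± 252 in lung, 1322 ± 54.9 in intestine and 734 ± 116 in bladder, higher by 1.30 (SE 0.14) in lung and by 0.86 (SE 0.12) in intestine than in bladder (limma, Benjamini-Hochberg adjusted p = 7.76e-05 and 0.000311). Psmb9, an immunoproteasome subunit, stood out in intestine, with 352 ± 38.2 in lung, 674 ± 58.4 in intestine and 348 ± 35 in bladder. H2-D1, a classical MHC class I heavy chain, was lowest in lung, with 2553 ± 79.2 in lung, 2994 ± 133 in intestine and 3838 ± 223 in bladder. Among 10 negative regulators, Socs1, which blocks JAK kinases, averaged 800 ± 203 in lung, 738 ± 45 in intestine and 1326 ± 114 in bladder and was lower by -0.75 (SE 0.15) in lung and -0.84 (SE 0.14) in intestine than in bladder (limma, Benjamini-Hochberg adjusted p = 0.00357 and 0.000635). Over that list 3 were higher and 2 lower in lung than in bladder, 2 higher and 4 lower in lung than in intestine, and 3 higher and 1 lower in intestine than in bladder.

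Levels between members were compared per length, as reads per nt of exon averaged over the 8 libraries. Ifitm3 (1.71) and Ifi27l2a (1.36) led, followed by Ifi27 (0.865), Bst2 (0.818), Ifitm2 (0.737), Ifitm1 (0.656) and Gbp2 (0.553). By organ the order differed: in lung Ifi27 (1.28) and Bst2 (0.989) stood above Ifi27l2a (0.832). Of the regulators, Irf1 (0.454) and Irf3 (0.349) had the highest values, below the 1 read per nt of the densely read genes. Irf4 (0.00584) had the lowest, while Irf8 had 0.102 in lung, 0.277 in intestine and 0.313 in bladder. Oas3 (0.000601) and Gbp10 (0.00129) were at the bottom of the 68, but 84.1% of the 50-base stretches of Gbp10 also occur in other genes, chiefly Gbp6.

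Summed over all 68 members, the values made up 1714 and 1764 ppm of the library in lung, 2233, 2328 and 2333 ppm in intestine and 2493, 2243 and 2279 ppm in bladder. Lung was below both other organs, which overlapped. The Ifi200 genes held 21.6 and 40.3 ppm in lung, 62.1, 69.2 and 70.3 ppm in intestine and 171, 124 and 120 ppm in bladder, and the IRF genes 454 and 504 ppm in lung, 768, 797 and 806 ppm in intestine and 737, 714 and 738 ppm in bladder. Within bladder, library 1 was the highest of the 3 for 38 of 65 members (58.5%, against 32% of all tested genes). The leukocyte markers summed to 695 ppm in that library, beside 382 and 371 ppm in the other bladder libraries. Endothelial (1153 against 862 and 987 ppm), mesothelial (486 against 287 and 367 ppm) and smooth muscle markers (2321 against 1921 and 2006 ppm) were also highest there. Epithelial and urothelial markers were highest in bladder library 3. The part of any of these cells in the member values was not tested. Without bladder library 1, lung had 26 members below bladder and intestine had 18, in place of 29 and 23. Among the 32 calls in lung against bladder, 5 were lost without it (Gbp2, Gbp2b, Ifit2, Oas2 and Oasl1), and among the 39 in intestine against bladder 6 were lost (Gbp3, Ifi211, Ifi27l2a, Ifi30, Ifitm6 and Oas2). Irf8, Irf5, Ifi204, Ifi205 and Ifi207 were still called lower in lung than in bladder without it.

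**Figure D5:**
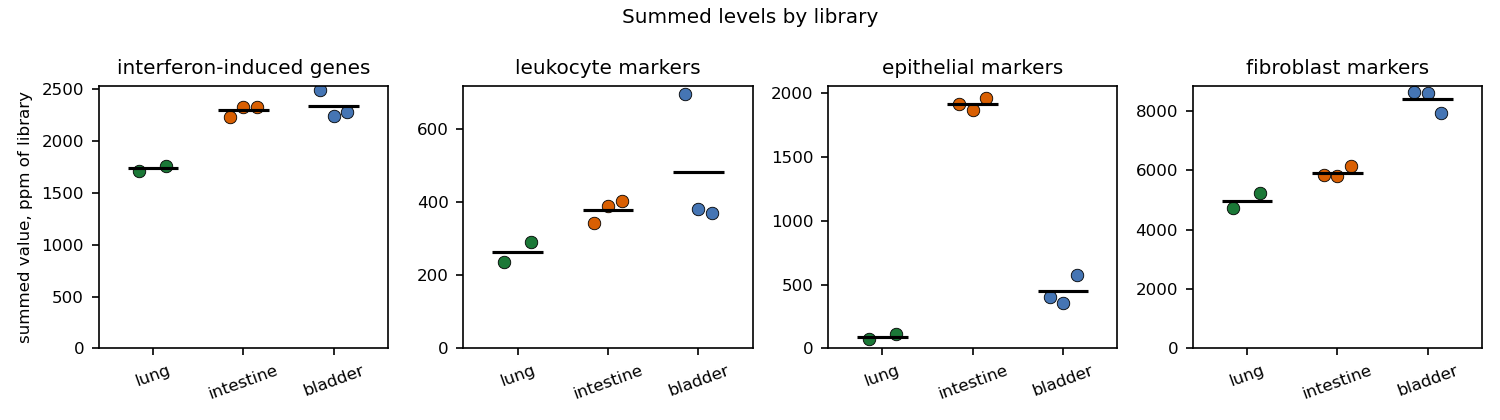
Summed values in ppm of the library for the 68 members and for the leukocyte, epithelial and fibroblast marker lists, with 1 point for each library, organ means as lines, and lung, intestine and bladder from left to right. The member sums lie at 1714 and 1764 ppm in lung and above 2200 ppm in the other organs, and bladder library 1 stands above the other bladder libraries for leukocyte markers.

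Over all members, 15 of the 32 calls in lung against bladder held in every alternative run that tested the gene. In lung against intestine 19 of the 32 held, and in intestine against bladder 19 of the 39. The run that asked for at least 50 in at least 2 libraries did not test some low members, among them Irf4, Gbp2b, Oas1g, Oas1e and Mx1. The alternative runs include that with the scaling undone, which leaves depth uncorrected (median over all genes 0.48 in lung and 0.45 in intestine against bladder). That shift can remove calls of small negative differences. That run alone removed the lung calls against bladder of Cmpk2, Ifit3, Ifit3b, Ifitm2, Ifitm3, Irf7, Irf9, Oasl2 and Usp18. In intestine against bladder it alone removed those of Gbp2, Ifi205, Ifit3b, Ifitm2, Ifitm3, Irf7, Irf8, Irf9 and Usp18. Among calls that another scaling or fit removed, beside those given above, quantile normalization left uncalled Oas1c (0.94), Oas1g (1.01), Gbp2b (1.02) and Ifi30 (0.42) in intestine against bladder and Ifi204 (-0.38), Ifi206 (-1.42), Ifi208 (-1.61), Ifit1bl1 (-1.44), Irf5 (-0.41), Irf7 (-0.27) and Ifi47 (-0.43) in lung against intestine. With the scaling undone Gbp3 (-0.24 in lung and -0.07 in intestine), Ifi211 (-0.65 in intestine) and Ifi27l2a (-0.11 in intestine) were not called against bladder. With only the 2 organs in the fit Gbp9 (-1.91, adjusted p = 0.0695) was not called in lung against bladder. The calls that held in lung against bladder were Irf4, Irf5, Irf8, Rsad2, Ifit1, Ifit1bl1, Ifitm1, Ifitm10, Ifi27, Ifi27l2a, Gbp8, Ifi203, Ifi204, Ifi205 and Ifi207. For lung against intestine they included Irf1, Irf8, Rsad2, Gbp2b, Gbp4, Gbp8, Gbp9, Ifi44, Oas1a, Oas1g and Ifitm10. For intestine against bladder they included Irf1, Irf5, Ifit1, Ifit3, Ifitm1, Ifi44, Ifi47, Ifi207, Ifi208, Gbp4 and Oas1a. The calls of Oasl1, an OAS relative with 28 ± 7.07 in lung, 55.3 ± 1.53 in intestine and 55.7 ± 13.3 in bladder, were the opposite case: its lung calls against bladder (-0.96, adjusted p = 0.0444) and against intestine (-0.98, adjusted p = 0.0432) were each lost in 4 of the 5 fits that left out 1 library of the pair, for example without lung library 1 (-0.71, adjusted p = 0.175, and -0.73, adjusted p = 0.163).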

How the data were processed

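RNA from sorted cells was made into libraries with the SMART-Seq v4 kit, which does not mark strand, per the labels' protocols. The authors deposited 1 table of normalized read counts rounded to whole numbers, treated here as a score and not as raw counts, so no count test was run. Tools listed in the submitters' processing notes, with no roles given, are STAR 2.7.10a, featureCounts 2.0.4, Picard 3.0.0, DESeq2 1.36.0 and Trimmomatic 0.39, with build mm39. Reads per library were reconstructed from the spacing of the values.

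Genes with at least 10 in at least 2 libraries were fitted on log2(value + 1) with limma 3.58.1 (R 4.3.3) over all 8 libraries, with a trended prior. P-values were adjusted by Benjamini-Hochberg over the 18097 tested genes, at a threshold of 0.05. Means carry SDs over libraries. Exon lengths came from GENCODE M21 (96.8% of gene IDs). Members and lists were chosen with earlier results of these data known. Any member could be named; those called with a log2 difference of at least 1, the IRF genes and Stat2 were given by library. Some members are not reported here by name, although counts include them; the figures by gene leave them out. Alternatives were other pseudocounts, filters, scalings and fits, a replicate block, and each library left out. Scripts were tested on simulated data. Python 3.11.15, numpy 2.4.6, pandas 2.3.3 and matplotlib 3.10.9 were used. Floors of 3 reads cover counting error only.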

Additional observations from a re-analysis of the deposited data

How the results depend on the processing

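With the deposited scaling undone, in which depth differences remain by construction, 10 members were higher and 14 lower in lung than in bladder, and 9 were lower in intestine than in bladder. Over all genes that setting gave 7947 higher and 1908 lower in lung than in bladder and 8316 higher and 1934 lower in intestine than in bladder, in place of 3466, 3952, 5185 and 4210. Its median over all genes was 0.48 and 0.45, and members' differences are to be read relative to that shift. Of differences called in either setting, that in lung against bladder changed sign for Ifitm3 (0.06), Ifitm2 (0.01), Irf1 (0.32), Irf2 (0.51), Bst2 (0.50) and Gbp2 (0.16), and the Gbp2 difference between intestine and bladder was 0.00. Uncalled in both settings, 8 further members changed sign in lung against bladder, 8 in intestine against bladder and 7 in lung against intestine. Equal totals gave 6 members higher in lung than in bladder. Quantile normalization gave 6 higher and 19 lower members in lung against intestine, and 4822 genes higher over all genes. It turned the Oasl1 difference in intestine against bladder to -0.87 and that of Ifit3b in lung against intestine to 0.66. The cause was not tested. Scaling from genes of low density, chosen after seeing the data, gave 2 higher and 31 lower members in lung than in bladder.

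With 1 library left out, the members called were 29 to 32 in lung against bladder (2 to 4 higher, 26 to 29 lower), 23 to 30 in lung against intestine (2 to 3 higher, 20 to 28 lower) and 31 to 35 in intestine against bladder (12 to 15 higher, 18 to 21 lower). With only 1 lung library left, that library was assumed to vary like the other organs.

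Whether the replicate numbers pair the samples is not known. Deviations of same-numbered libraries from their organ means correlated at -0.026 to 0.058. With 2 or 3 libraries for each organ this cannot decide the question. With the replicate block, 2 members were higher and 28 lower in lung than in bladder, 3 higher and 25 lower in lung than in intestine, and 16 higher and 23 lower in intestine than in bladder.

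Depth limits the members near 0. Oas3, Ifitm5 and Gbp10 could not be tested, and 3 reads correspond to a value of 2.47 to 3.81.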
